A study of Caenorhabditis elegans with 2 samples.

Results

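Chromosome X carried 5029 of the 29153 regions that lay away from small RNA genes in a ChIP-seq list of ZIM-3-GFP (17.3%). The members were all X regions of the pooled list of 30000 whose summit was more than 500 bp from every tRNA, snoRNA and snRNA gene of the Ensembl release 115 annotation (WBcel235, the same assembly as ce11). X held 5273 regions in all, and 244 of them were left out by that distance. Regions on the 5 autosomes chosen in the same way numbered 24124, from 4339 on IV to 5679 on V.

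The measurement was chromatin immunoprecipitation followed by sequencing, which lists where DNA bound by a protein is recovered. The worms were Caenorhabditis elegans of strain OP581, which carries unc-119(tm4063) III and the transgene wgIs581 and stably expresses ZIM-3 with a GFP-FLAG tag at its C-terminus. An antibody to GFP was used for the precipitation from sonicated material of whole young adults of pooled sexes, taken 54.5 h after starved L1 larvae were released. There was 1 group with 2 biological replicates, the sequence that drives the transgene is not stated in the labels used here, and whole animals mix germline and body cells. The authors deposited a list of 30000 regions for each replicate and for the pooled reads, plus a shorter list that passed their irreproducible discovery rate (IDR) threshold. The IDR peaks were exactly the top of the pooled list by signal, so most of each list of 30000 is lower signal, and the authors describe the lists as peaks and background. ZIM-3 acts at the pairing centres through which chromosomes I and IV find their partners in meiosis. The related zinc finger protein HIM-8 serves the pairing centre of X, which lies toward the left end of that chromosome.

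The X chromosome is largely silent in the germline, and in body cells of hermaphrodites, which have a pair of X chromosomes, the dosage compensation complex binds X and lowers its expression. That complex is recruited to X at a set of sites that share a sequence motif holding the letters GCGCAGG. Only these letters were searched here, not the whole motif of those sites, and they are called the motif below.

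The highest X regions show what the list holds there. The first sequence is the 151 bp around the highest X summit, with the letters GCGCAGG, here read from the other strand as CCTGCGC, in capitals. The next pair are the windows of the second and the third, and neither holds the motif. All sequences are from the RefSeq WBcel235 assembly and are written 5′ to 3′.
rank 49, intergenic, no gene within 1 kb, chrX:11094114-11094264, plus strand: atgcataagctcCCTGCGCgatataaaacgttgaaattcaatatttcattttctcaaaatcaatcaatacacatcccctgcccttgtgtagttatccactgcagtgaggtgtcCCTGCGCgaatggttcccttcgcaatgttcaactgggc
C30E1.9, chrX:16930886-16931036, plus strand: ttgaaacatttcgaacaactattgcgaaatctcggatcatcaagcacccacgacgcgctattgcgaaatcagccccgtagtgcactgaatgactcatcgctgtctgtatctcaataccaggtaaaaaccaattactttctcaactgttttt
C14F11.14, chrX:6207771-6207921, plus strand: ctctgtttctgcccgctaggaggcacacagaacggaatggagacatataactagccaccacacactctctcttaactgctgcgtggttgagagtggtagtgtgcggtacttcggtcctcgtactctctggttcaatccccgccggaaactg

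Of the 79 X members that were IDR peaks, 8 held GCGCAGG within 100 bp of the summit, in 9 copies. These are the sites of the motif result given further on, each shown as 41 bases on the strand that reads GCGCAGG, in capitals, and named by the nearest gene.
rank 49, copy left of the summit, chrX:11094109-11094149, minus strand: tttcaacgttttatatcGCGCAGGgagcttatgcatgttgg
rank 49, copy right of the summit, chrX:11094210-11094250, minus strand: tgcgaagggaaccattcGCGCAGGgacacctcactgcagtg
WBGene00020829, chrX:1837875-1837915, plus strand: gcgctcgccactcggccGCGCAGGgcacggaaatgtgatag
hpk-1, chrX:4209250-4209290, minus strand: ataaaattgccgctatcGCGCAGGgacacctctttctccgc
F22H10.2, chrX:16682083-16682123, minus strand: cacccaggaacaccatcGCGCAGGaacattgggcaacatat
pks-1, chrX:5429573-5429613, plus strand: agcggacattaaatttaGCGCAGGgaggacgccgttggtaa
nspc-17, chrX:14525884-14525924, minus strand: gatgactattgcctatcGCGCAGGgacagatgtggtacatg
T27A8.7, chrX:16056634-16056674, minus strand: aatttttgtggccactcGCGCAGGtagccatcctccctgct
mdl-1, chrX:6742373-6742413, minus strand: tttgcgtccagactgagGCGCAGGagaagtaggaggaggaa
In these 9 copies, of which 2 come from 1 peak, the base just before the motif was C in 7 and the base before that T in 7. The base just after it was G in 6 and the next A in 7. Over all 348 copies on X away from small RNA genes, the 9 included, the shares of the same bases in the same order were 26.4%, 36.2%, 22.4% and 37.1%, and over the 1595 autosomal copies 17.4%, 27.8%, 13.0% and 31.3%. The 4 positions were chosen from the 9 copies, so these shares are a description.

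IDR peaks were a smaller share of the members than of autosomal regions. They numbered 79 of 5029 on X, 1.57% (95% Clopper-Pearson interval 1.25 to 1.95), against 2.07% of all regions away from small RNA genes and 3.02% of the whole pooled list. The autosomes ran from 1.69% to 2.77%, so X was the lowest of the 6 chromosomes (exact 2-sided permutation of the X label, p = 0.333). In each replicate list the highest regions, as many as there were IDR peaks in all, were counted in place of the IDR peaks. They made up 1.30% of the X regions of replicate 1, where the autosomes ran from 1.97% to 2.75%, and 1.78% in replicate 2, where they ran from 1.76% to 2.72%. With 6 chromosomes this permutation cannot give a p below 0.167, so no comparison of X with the autosomes could pass the usual threshold. Intervals over regions cover counting error only, and neighbouring regions are not independent.

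The distance from small RNA genes removed most of the X peaks. X held 186 IDR peaks, and 107 of them were among the 244 regions left out. Just inside the excluded range, at over 250 and up to 500 bp, 15 regions had a median signal of 60.2 and none was an IDR peak, and just outside it, at over 500 and up to 750 bp, 31 members had a median of 64.7 and 2 were IDR peaks. The 119 excluded regions at 1 to 250 bp had a median signal of 116.1 and held 52 IDR peaks. The distance therefore fell in a range of low signal, well outside the regions beside the small RNA genes.

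Density and signal of the members were within the range of the autosomes. There were 288.4 X regions per Mb of sequence away from small RNA genes in the pooled list, 286.5 in replicate 1 and 293.3 in replicate 2. The autosomes ran from 250.6 to 338.2 per Mb in the pooled list, from 252.9 to 343.5 in replicate 1 and from 250.3 to 331.1 in replicate 2, with 3 chromosomes denser than X in each list (exact permutation p = 1). The median signal, in the units of the signal column that the authors deposited, was 66.6 on X and 66.4 to 67.8 on the autosomes. In replicate 1 the medians were 50.6 on X and 50.2 to 51.5 elsewhere, and in replicate 2 they were 20.5 and 20.2 to 20.9 (exact permutation p = 0.667 in each list). The upper end differed more than the middle: the highest X signal was 338.5 and the highest autosomal one 818.0, and 24 autosomal regions away from small RNA genes stood above every X member. Of the 100 highest regions of the pooled list, 2 were X members and 51 were autosomal regions away from small RNA genes. Over all ranks, X members were 17.3% of the regions away from small RNA genes and autosomal ones 82.7%.

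Density varied less along X than along 4 of the 5 autosomes. In 35 windows of 500 kb the mean was 289.0 per Mb ± 46.6 (SD over windows), a coefficient of variation of 16.1%, where the autosomes ran from 15.4% to 35.3%. The leftmost window, chrX:1-500000, was the sparsest with 84 regions, 170.7 per Mb, and it was also the lowest of both replicates, at 172.8 and 136.2 per Mb. Of the 35 windows it also had the lowest share of exon bases (12.0%), the highest of intergenic bases (57.7%) and the fewest protein-coding gene starts (52). The X pairing centre is known to lie toward this end. Whether the low density goes with any of these was not tested. The highest of these fixed windows was chrX:14500001-15000000, with 189 regions or 382.2 per Mb. The outermost 2 Mb held 247.8 per Mb on the left and 263.4 per Mb on the right.

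**Figure D1:**
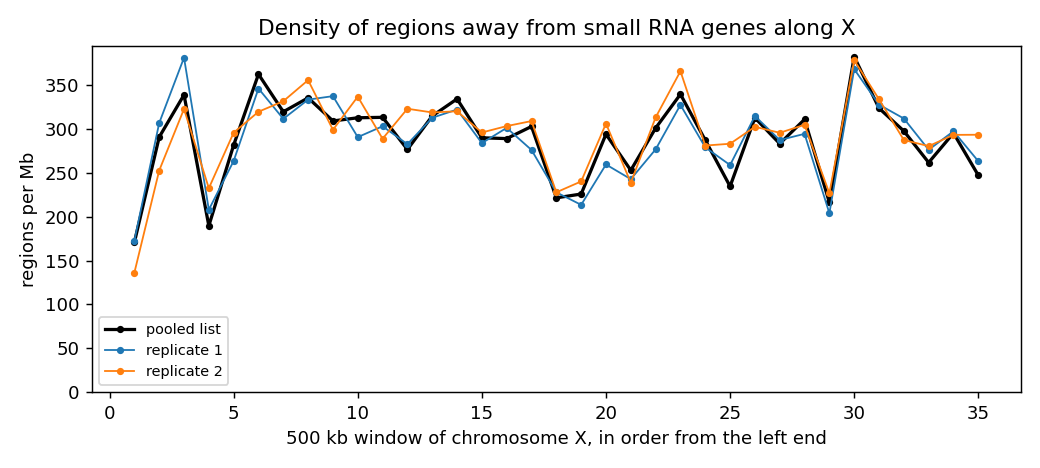
Regions per Mb (vertical axis) in each of the 35 windows of 500 kb of chromosome X in order from the left end (horizontal axis), for the pooled list and each replicate. The leftmost window is the lowest in all 3 lists, and the window numbered 30 is the highest in the pooled list at 382.2 per Mb.

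A sliding window gave another densest place. The 500 kb with most regions was chrX:2775027-3275026 in the pooled list, with 198 regions of which 2 were IDR peaks, while replicate 1 had its densest 500 kb at chrX:1008348-1508347 and replicate 2 at chrX:14613312-15113311, with 191 regions each. At 1 Mb the replicates had the same densest place, chrX:14615132-15615131 with 347 regions in replicate 1 and chrX:14615131-15615130 with 372 in replicate 2, while the pooled list had chrX:2264248-3264247 with 358. The densest place thus differed between the replicates at 500 kb and was shared at 1 Mb. The highest region of the pooled window, at 2971775, had a signal of 154.6 in the pooled list, 123.4 in replicate 1 and 35.3 in replicate 2, and no gene lay within 1 kb. Across the 35 windows the replicates' densities had a Pearson r of 0.826. The density had an r with the share of exon bases of 0.474 in the pooled list, 0.284 in replicate 1 and 0.484 in replicate 2. On the autosomes that r ran from 0.127 to 0.652 in the pooled list. These windows share libraries and neighbouring sequence, so all these values are descriptions. The sparsest 1 Mb was chrX:1-1000000 with 229 regions, whose highest summit lay in an intron of dgk-1, the gene of a diacylglycerol kinase, with a signal of 161.8. The left, middle and right parts of X, of equal length, held 292.9, 288.4 and 283.9 regions per Mb. Their IDR peaks numbered 25, 19 and 35.

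Fewer of the high X regions were at promoters, and more lay outside promoters and protein-coding genes (called intergenic here), than on any autosome. Each summit was put in the first class that held it. The classes were promoter (within 500 bp of the start of a protein-coding gene), other exon, intron and intergenic. Exons and introns were those of protein-coding genes only. A summit inside an ncRNA gene or a pseudogene could therefore count as intergenic, as those in C30E1.9 did. Of the 79 X IDR peaks, 13 were at promoters, 16.5% (95% interval 9.06 to 26.5), while on each autosome the share lay between 39.3% and 44.2%. In contrast 39 were intergenic, 49.4% (37.9 to 60.9), against 17.3% to 23.4% on each autosome. Another 11 lay in other exons and 16 in introns, 13.9% and 20.3%. X was the lowest of the 6 chromosomes for promoters and the highest for intergenic summits (exact permutation p = 0.167 for each, the smallest possible).

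Both replicates had X at the same ends of the order. Among the highest regions of replicate 1, 14 of 65 X summits were at promoters (21.5%, autosomes 37.5% to 42.7%) and 27 were intergenic (41.5%, autosomes 16.2% to 27.7%). In replicate 2, 18 of 91 were at promoters (19.8%, autosomes 33.0% to 39.02%) and 38 were intergenic (41.8%, autosomes 20.3% to 27%). The X values did not overlap with those of the autosomes in any list, with an exact permutation p of 0.167 in each.

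**Figure D2:**
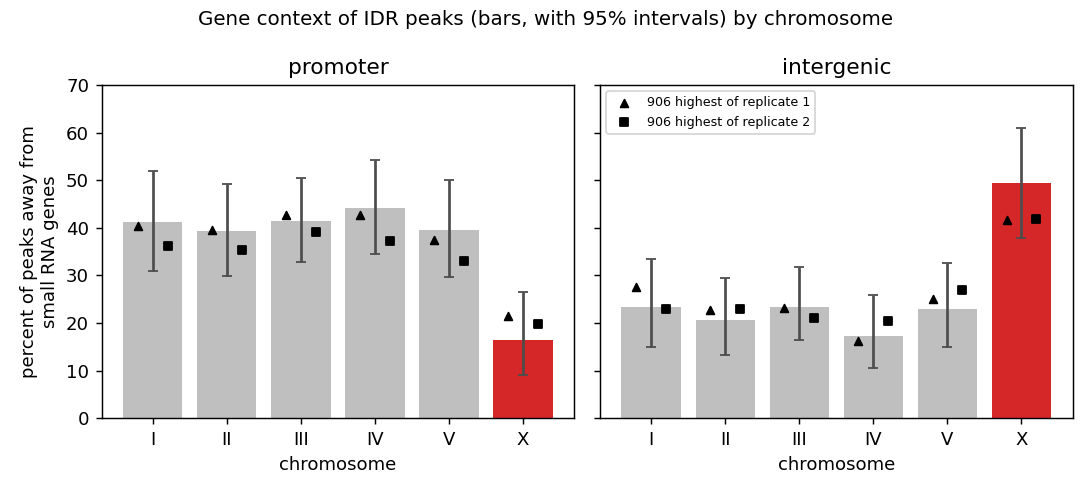
Share of peaks away from small RNA genes that lay at promoters (left) and in intergenic sequence (right), in percent, by chromosome. Intergenic here means outside promoters and protein-coding genes. Bars are IDR peaks with 95% Clopper-Pearson intervals, red for X; triangles and squares are the highest regions of replicates 1 and 2, as many as the IDR peaks. X is at 16.5% for promoters, below the autosomes at 39.3% to 44.2%, and at 49.4% for intergenic summits, above their 17.3% to 23.4%.

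The sequence of X itself has fewer promoter bases and more intergenic ones. By the same classes 15.1% of X bases were promoter and 37.5% intergenic, while the autosomes had 17.6% to 22.7% and 22.4% to 33.1%. X had 154.1 protein-coding genes per Mb, and the autosomes 187.6 to 238.7. Over all members, high and low, the promoter share was 16.8% on X and 21.0% to 23.2% on the autosomes, and the intergenic share 25.1% and 17.3% to 21.1%. The intergenic share of all X members was therefore below that of X bases, and that of the X IDR peaks above it. How much of the difference among IDR peaks comes with the base composition of the classes was not tested.

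The gap between X and the autosomes was widest among the highest regions. By rank in the pooled list, the X promoter share was 16.5% among the IDR peaks, 21.7% in the next group down to rank 2000, 17.7% at ranks 4001 to 8000 and 16.7% at 15001 to 30000. On the autosomes it was 41.1%, 28.1%, 20.2% and 21.4% in those groups. The autosomal share was thus highest at the top ranks, while that of X was not. On X the intervals of the IDR peaks (9.06 to 26.5) and of the next group (15.2 to 29.3) overlapped. The X intergenic share was 49.4%, 23.1%, 26.2% and 25.1%, and that of the autosomes 21.5%, 19.98%, 16.8% and 19.7%. In the groups left out above, ranks 2001 to 4000 and 8001 to 15000, the promoter share was 20% and 14.9% on X. It was 23.1% and 21.5% on the autosomes. The intergenic share there was 23.1% and 23.6% on X, and 19.5% and 17.9% on the autosomes. All groups are set side by side as values, without a test.

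**Figure D3:**
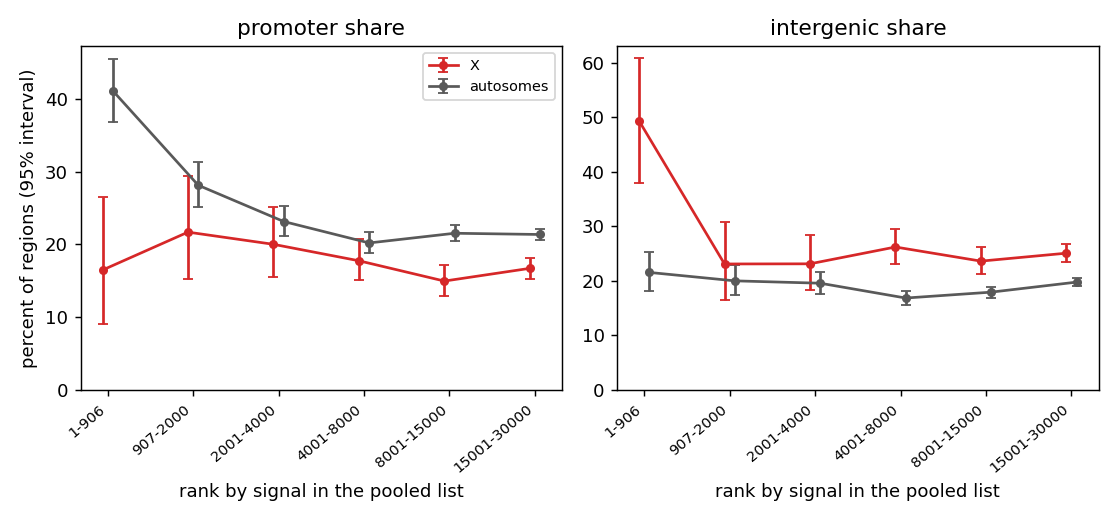
Promoter share (left) and intergenic share (right) of regions away from small RNA genes, in percent with 95% intervals, by rank of signal in the pooled list, for X (red) and the autosomes together (grey). In the leftmost group, the IDR peaks, the autosomes are at 41.1% and X at 16.5% for promoters, and X is at 49.4% and the autosomes at 21.5% for intergenic summits.

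The share of peaks past the end of a gene was also higher on X than on each autosome. The nearest protein-coding gene had the summit downstream of it in 28 of 79 on X, 35.4% (25 to 47.0), and in 11.5% to 22.4% on each autosome. All 28 were intergenic, so this share is largely the intergenic share given again. Among the 39 intergenic X peaks, 15 were up to 1 kb downstream of that gene (38.5%) and 13 farther downstream (33.3%, interval 19.1 to 50.2). The 13 included 5 peaks of a single locus, C30E1.9 at chrX:16930051-16944683, which the interval counts as separate. Among the 113 intergenic autosomal peaks, 65 were up to 1 kb downstream (57.5%) and 9 farther (7.96%, interval 3.71 to 14.6). Another 5 X peaks were up to 1 kb upstream and 6 farther upstream. The median distance to the gene was 850 bp on X and 519 bp on the autosomes together. On single autosomes it ran from 318 bp on II to 816 bp on V, close to the X value. Genes of the annotation's ncRNA class, a catch-all for unclassified non-coding transcripts, lay within 500 bp of 23 of the 79, 29.1%, and of 8.89% to 16.8% of the peaks of each autosome. X also has the most such genes, 2520 against 764 to 1524, and 14.8% of all X members were near one against 5.66% to 8.33% on the autosomes. The 5 peaks at C30E1.9 were also among the 23 X IDR peaks near an ncRNA gene.

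The letters GCGCAGG were in a larger share of the X IDR peaks than of the other regions. GCGCAGG, searched on both strands up to 100 bp from each summit, was in 8 of 79 X IDR peaks, 10.1% (4.47 to 19.0). It was in 36 of the 4950 other X members (0.727%) and in 3 of 525 autosomal IDR peaks (0.571%, interval 0.118 to 1.66). Of all windows of the same length, 0.376% held it on X and 0.376% on the autosomes. None of the 158 windows 1 kb to either side of the X IDR summits held it. At a share of 0.376%, few or none of them would be likely to hold it, so this adds little. Among the highest regions of replicate 1 it was in 6 of 65 on X and 4 of 558 on the autosomes, and in replicate 2 in 5 of 91 and 3 of 559. The X share was 9.23% and 5.49% in the replicates, against 0.717% and 0.537%.

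**Figure D4:**
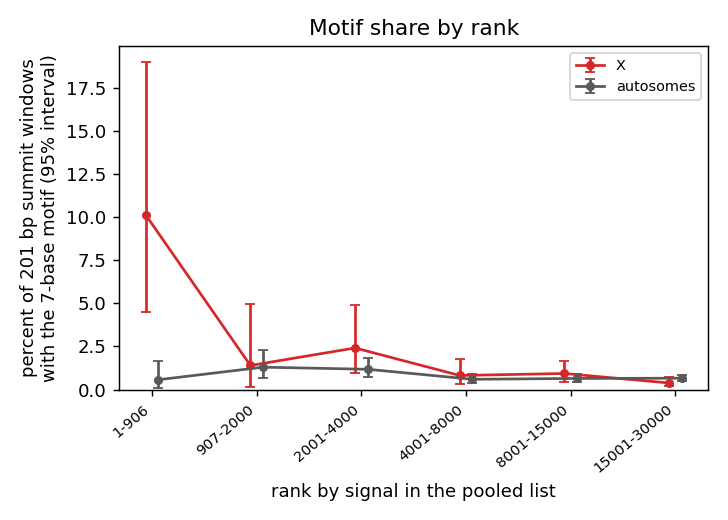
Share of summit windows, reaching 100 bp to each side, that hold the letters GCGCAGG on either strand, in percent with 95% intervals (vertical axis), by rank of signal in the pooled list (horizontal axis), for X (red) and the autosomes together (grey). X stands at 10.1% in the leftmost group, the IDR peaks, where the autosomes are at 0.571%.

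Most copies of the motif had no high region. X held 348 copies away from small RNA genes, of which 9 had an IDR summit within 100 bp (2.59%) and 49 a summit of any member (14.1%). The autosomes held 1595 copies, with 3 near an IDR summit (0.188%) and 179 near any (11.2%). Most copies thus had a low region or none on X as on the autosomes. A match is a description of letters, and whether any protein was bound at these copies was not tested.

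The peaks with the motif were among the highest X IDR peaks or at or below the median X IDR signal of 160.4. The highest X summit, at 11094189, lay 1484 bp from a tRNA gene, its nearest gene, and held 2 copies. It had a signal of 338.5 in the pooled list, 250.8 in replicate 1 and 82.7 in replicate 2, with ranks 49, 48 and 94. The summit at 1837860, inside the pseudogene WBGene00020829, had signals of 245.4, 179.2 and 66.8 in the same order. The summit at 4209312, 1259 bp past the end of hpk-1, a homeodomain-interacting protein kinase gene, had 209.5, 138.7 and 75.2. These 3 were among the 11 highest X members. The other 5 had pooled signals from 142.9 to 160.4, near F22H10.2, pks-1 (a polyketide synthase gene), nspc-17, T27A8.7 and mdl-1. The pks-1 summit had signals of 147.3, 70.5 and 79.0, with rank 4763 in replicate 1 and 107 in replicate 2, so it was high in replicate 2 and not in replicate 1. Of the 8 peaks, 6 were classed as intergenic, the one inside the pseudogene included. The genes of these 5 and hpk-1 are named for the motif, after their values were seen.

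A ranking of all 7-mers in the same X IDR windows put these letters first. The motif had already been counted in those windows, so the ranking is a description and no separate support. The first and second 7-mers share most of their letters. Among 7-mers present in at least 6 X IDR windows, those with the highest share there relative to the other X members were CCCTGCG, 10.1% against 0.667%, and CCTGCGC, the motif read on the other strand, 10.1% against 0.727%. Of the 7-mers that followed by that ratio, GGGACAC was in 9 of 79 against 1.39% of other X members and 1.52% of autosomal IDR peaks. A 7-mer lower in the ranking, CCTTCGC, was paired with the motif for its similar letters, with higher-ranked ones passed over. It was in 9 of 79 X IDR windows, 11.4%, against 1.56% of other X members and 1.52% of autosomal IDR peaks. Either that one or the motif was in 13 of 79, 16.5% (9.06 to 26.5), and 4 had both, while 11 of 525 autosomal IDR peaks had either (2.10%) and none had both. The second 7-mer was chosen after the ranking was seen, on the same peaks, so its share is a description.

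The other motifs were commoner words. GAGAGA was in 38.0% of the X IDR windows (27.3 to 49.6), 14.2% of the other X members, 15.2% of the windows 1 kb away and 9.45% of all X windows, and in 14.95% to 33.3% of the IDR windows of each autosome. In percentage points its gap to the other X members was wider than that of GCGCAGG, and in proportion it was narrower. CACACA was in 22.8% on X and 12.5% to 19.6% on the autosomes. TATAA was in 29.1% of X IDR windows, 25.6% of other X members and 21.0% of autosomal IDR peaks, where all windows of X had 40.6%. GATAA was in 32.9% (interval 22.7 to 44.4), 34.6% and 26.3%, where all windows of X had 38.8%, inside that interval. TTTTTT was in 35.4%, 40.7% and 44.4%, and in 62.4% of all X windows. CCGCG was in 20.3%, 12.9% and 24.2%, and in 6.87% of all X windows, so its share at IDR peaks was above that of all X windows on X and autosomes alike. All motifs were searched on both strands.

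Signals of the 79 X IDR peaks ran from 141.4 to 338.5, with a median of 160.4 against 170.6 for the autosomal ones. The second highest, at 16930961, had signals of 292.4 in the pooled list, 197.5 in replicate 1 and 99.3 in replicate 2, and lay in C30E1.9, an ncRNA gene. The third, at 6207846, had 276.3, 201.1 and 78.1 and lay in the ncRNA gene C14F11.14, 159 bp upstream of the protein-coding T13C5.6. The fourth, at 1503614, had 262.4, 200.4 and 64.8 and lay 336 bp past the end of F09E10.1. All 3 were within rank 213 of both replicates.

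The fifth, sixth and seventh lay beside mdl-1, mxl-3 and hsp-3. The summit at 6744104 in the ncRNA gene R03E9.10 was 205 bp past the end of mdl-1, which encodes a Mad-like helix-loop-helix factor, with signals of 253.9 in the pooled list, 158.3 in replicate 1 and 98.4 in replicate 2. The one at 13349327 was 312 bp past the end of mxl-3, a Max-like factor of lipid metabolism, with 246.8, 202.6 and 56.0. At 6092200, 76 bp upstream of hsp-3, an endoplasmic reticulum chaperone of the Hsp70 family, the signals were 246.3, 148.2 and 92.8. These 3 differed in which replicate ranked them higher: mxl-3 was at rank 118 in replicate 1 and 354 in replicate 2, and hsp-3 at 311 and 64. Lower in the order, at position 21 on X, the summit 253 bp past the end of atf-4, a bZIP factor of the integrated stress response, had 186.0, 135.3 and 49.0. The genes are named by position, and no list of such functions was tested.

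The rest of the 25 highest X regions had pooled signals down to 178.5. They included T04C10.8, an ncRNA gene 470 bp upstream of the epsin gene epn-1 (222.5), an exon of the short-chain dehydrogenase gene dhs-25 (211.1), an exon of ZK470.2 (208.3) and the sequence 268 bp upstream of serp-1.1 (201.8). Others were T13H2.7, beside the RING protein gene spat-3 (194.1), the start of syd-9, a zinc finger gene of synapse development (194.0), F55G7.5 (188.4) and an intron of inso-1 (187.8). Y15E3A.8, whose nearest protein-coding gene is nfki-1, an IκB homologue, had 186.9, and W06B11.9, 330 bp upstream of the Pumilio family gene puf-9, had 185.1. The regions upstream of sdz-19 and of M03F4.6 had 183.5 and 178.5. By class the 25 were 13 intergenic, 8 promoter, 2 intron and 2 other exon. One lay within 1 kb of no gene besides the highest and that of hpk-1, at 13700931 (201.3). The protein-coding genes given beside an ncRNA gene, and hpk-1, were named after the values were seen.

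**Figure D5:**
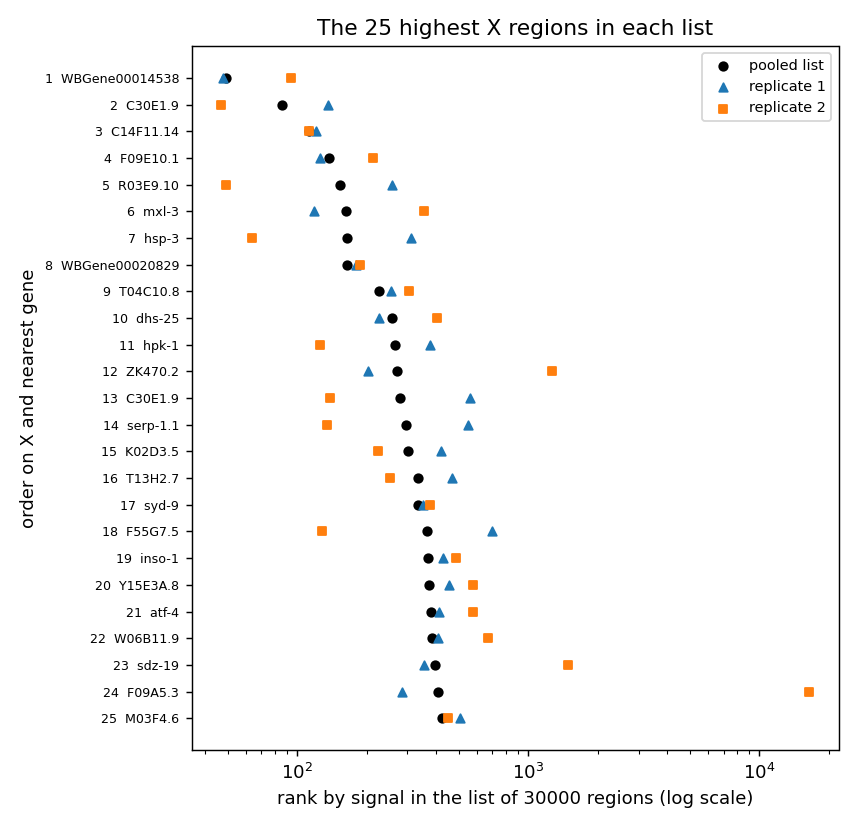
Rank by signal (horizontal axis, log scale) of the 25 highest X regions away from small RNA genes in the pooled list (circles), replicate 1 (triangles) and replicate 2 (squares), labelled with the order on X and the nearest gene. All 25 are within rank 700 of replicate 1, and the region at F09A5.3 stands at rank 16407 of replicate 2.

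One leading X region was high in a single replicate. The summit at 13144504, in an intron of F09A5.3 beside the microRNA genes mir-54, mir-55 and mir-56, had signals of 181.6 in the pooled list, 153.6 in replicate 1 and 20.02 in replicate 2, with rank 285 in replicate 1 and 16407 in replicate 2. Replicate 2 thus had it near the median of its X regions. The summit 256 bp past the end of tts-1, a long non-coding RNA gene, had 177.6, 155.9 and 22.7. Its region overlapped that of the fourth highest X summit, at 1503614, which had 64.8 and rank 213 in replicate 2. That place was therefore high in both replicates. Lower X IDR peaks at 4146156 in ZK470.2 and beside F19H6.6 had ranks 374 and 371 in replicate 1, and 16757 and 21048 in replicate 2. tts-1 and the genes of these lower peaks are named after their values were seen.

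Some X IDR peaks lay close together. The median distance between neighbours was 124715 bp, and 48 of the 79 had none within 20 kb, while 31 fell in 11 groups joined by that distance. The group with most peaks had 5, at chrX:16930051-16944683, all nearest to C30E1.9, with signals from 145.6 to 292.4. Their summits lay 538 to 3344 bp from the nearest tRNA, snoRNA or snRNA gene, so 1 of them was just past the 500 bp distance. Groups of 3 peaks lay at ZK470.2, between F45E1.11 and unk-1, around lin-14, the heterochronic gene regulated by the lin-4 microRNA, and from atf-4 to epn-1. A group of 4 at chrX:1483931-1503875 took in acly-1, an ATP citrate lyase gene, dhs-25, F09E10.1 and tts-1. The genes of groups outside the 25 highest regions are named after their values were seen.

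The share of members found again in the replicates was within the range of the autosomes. A summit of both replicates lay within 200 bp of 2431 of the 5029 members, 48.3% (46.9 to 49.7), equal to the 48.3% over all regions away from small RNA genes, with autosomes from 46.9% to 50.2% (exact permutation p = 0.833). Replicate 1 matched 82.6% of them, against 82.7% over all such regions, and replicate 2 matched 62.1%, against 62%. The pooled list was made from the reads of both, so a match is not independent of the list. By rank the share matched in both fell from 100% of the X IDR peaks, through 93.7%, 90.3%, 80.1% and 64.2%, to 23.5% at 15001 to 30000. The autosomes had 98.3%, 93.9%, 87.8%, 79.2%, 62.4% and 23.2% in the same steps. Most X regions in the lower part of the list were thus not found at the same place in both replicates.

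High rank was a stricter measure. Of the 79 X IDR peaks, 57 were among the highest regions of replicate 1 (72.2%) and 45 among those of replicate 2 (57.0%), with 32 among both. The autosomes ran from 83.6% to 87.5% for replicate 1 and from 55.5% to 66.3% for replicate 2. X was below every autosome for replicate 1 and within their range for replicate 2.

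Gene starts were used to set the regions beside named gene groups. Within 1 kb of the start, 1220 of the 2731 protein-coding X genes had a member (44.7%), against 46.7% of protein-coding genes on all chromosomes. The highest of these was an IDR peak at 24 X genes (0.879%), against 1.92% on all chromosomes and 2.08% on the autosomes. All 6 X genes of sex determination and dosage compensation had a region and none an IDR peak, and their median highest signal was 75.3, against 70.4 over all X genes with a region and 70.9 over autosomal ones. ceh-39 and sex-1, X signal elements that repress xol-1, had pooled signals of 91.8 and 66.8, and fox-1, an RNA-binding X signal element, 83.7. The master switch gene xol-1 had 55.5. Of the zinc finger gene sdc-1 and its partner sdc-2, which brings the dosage compensation complex to X, the first had 88.3 and the second 53.2. The regions of sex-1, xol-1 and sdc-2, at pooled ranks 15407, 24728 and 27075, had no summit of replicate 2 within 200 bp.

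The other X gene lists held a single protein-coding gene with an IDR peak. It was the cuticle collagen gene col-184, with a pooled signal of 153.2, 1 of 30 X collagens, of which 13 had a region. Among 30 ligand-gated ion channel genes 14 had a region, led by the acetylcholine receptor genes acr-12 (130.2) and acr-10 (130.03). Neuropeptide genes had a region at 17 of 32, led by flp-12 (125.7) and nlp-76 (115.5), and nuclear hormone receptor genes at 16 of 23, led by nhr-1 (113.0). Homeobox genes had one at 12 of 22, led by ceh-21 (108.5), and synapse and neuronal identity genes at 12 of 19, led by unc-115 (122.6), an actin-binding protein of axon guidance. The body wall muscle list had a region at 8 of 13, led by the actin gene act-4 (131.4). These shares lay on both sides of the 44.7% of all X genes. Among the leading regions just named, that of acr-12 had no summit of replicate 2 within 200 bp.

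The remaining lists ran from 2 to 74 genes. The ribosomal protein genes rpl-11.2 (137.2) and rpl-25.1 (92.4) both had a region, the yolk protein genes 3 of 5, led by vit-1 (74.6), and the innexins, which form gap junctions, 3 of 6, led by inx-5 (81.8). Enzymes of the cytochrome P450 and conjugating families had one at 10 of 14, led by gst-11 (103.9), and intestinal proteases at 3 of 4, led by cpr-6 (80.5). Among GATA factor genes 1 of 4 had one, elt-2 (63.1), which drives the intestine, and among insulin-like genes 1 of 2, ins-39 (86.04). Potassium channel genes had a region at 5 of 17, led by kqt-2 (83.7), and chemoreceptor genes at 5 of 33, led by srd-38 (56.8). The regions of vit-1 and srd-38 had no summit of replicate 2 within 200 bp. Of 74 microRNA genes 46 had one, and the 4 with an IDR peak were neighbours that share the summit at 13144504.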

How the data were processed

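Per the labels, 2 biological replicates of 1 group were profiled, and the authors deposited narrowPeak lists on ce11 for each replicate, the pooled reads and the IDR-thresholded peaks. A control library went into every list, according to descriptions deposited with the files, and it is not analysed here. The aligner, peak caller and IDR threshold were not given in the sources used here, nor were versions. The signal is the value the authors deposited for each region, on a scale that differs between lists. The −log10 q-value deposited by the authors was not used. The summit is the authors' deposited offset from the start, and 99.9% of regions were 376 bp wide. Read numbers are in none of the files, so sequencing depth is unknown and gives no measure of precision.

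Summits were classed against Ensembl release 115 and matched between lists within 200 bp (Python 3.11.15, numpy 2.4.6, scipy 1.17.1, pandas 2.3.3). X was set against the 5 autosomes by exact permutation of the chromosome label. In replicate lists the highest regions, in the number of the IDR peaks, stood for them. Clopper-Pearson intervals (95%) cover counting error. Motifs were searched up to 100 bp from summits. The alternatives were distances to small RNA genes, promoter widths, match distances, joined regions, the 15000 highest regions and each replicate list alone. The steps were checked on simulated lists.

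The members, the 18 gene lists and the motifs were chosen with earlier results of these data known, and the context and motif comparisons among IDR peaks were added after seeing the data. Named genes were those within 1 kb of the 25 highest X regions, up to 3 X genes of each list by signal, the dosage genes, and genes at the highest region of the densest 500 kb and sparsest 1 Mb of X. Others are said to be named after their values were seen.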

Additional observations from a re-analysis of the deposited data

How the results depend on the processing

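No paired analysis was possible because there is 1 group. Depth is unknown, there is 1 X chromosome, and the pooled list shares its reads with the replicates. Of 63 values under alternative settings, 30 were counted as the same as the main value, 29 as moved and 4 as reversed. A reversed value fell on the other side of equality between X and the autosomes. The cause was not tested. The ratio of X to autosomal density, 0.978, became 1.03 with regions within 1 kb joined and 0.957 in the 15000 highest regions, with 0.970 to 0.998 in single replicates. The difference in the share matched in both replicates, 0.0433 percentage points, became −0.102 with a 250 bp distance to small RNA genes and −1.50 with matches within 500 bp. It was 0.821 in the 15000 highest regions, 0.260 with joined regions and 0.426 with matches within 100 bp, and −0.152 to 0.0844 in single replicates. That difference had no stable sign.

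The ratio of median signals, 0.993, was 0.996 in the 15000 highest regions, 0.991 with joined regions and 0.993 to 0.996 in single replicates. The ratio of IDR shares, 0.722, ran from 0.563 to 0.765 in single replicates. The promoter share of all members, −5.27 points from the autosomes, was −5.89 in the 15000 highest regions, −2.60 with promoters of 250 bp, −8.83 with 1 kb, and −5.02 to −4.17 in single replicates. The densest 500 kb held 198 regions, 105 of the 15000 highest, and 191 in each single replicate; the densest 1 Mb, another width, held 358.

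The comparisons among IDR peaks, with their alternatives, were chosen after seeing the data. The promoter difference of −24.7 points was −18.8 with promoters of 250 bp, −27.2 with 1 kb, −28.1 with all transcripts, and −19.1 to −16.5 in single replicates. The intergenic difference of 27.8 points was 27.6 and 26.5 with distances of 250 and 2000 bp to small RNA genes, 23.9 with joined regions, 24.1 and 26.5 with promoters of 250 bp and 1 kb, 28.2 with all transcripts, and 18.8 to 19.0 in single replicates. The motif difference of 9.56 points ran from 4.96 to 8.51 in single replicates.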
